A study of Homo sapiens with 9 samples.

Results

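The interleukin-1 family members described here are 7 of the 18430 genes in the deposited table. They were taken by symbol: the cytokines IL1A, IL1B, IL18 and IL33, the receptor antagonist IL1RN, and the receptor subunits IL1R1 and IL1RAP. RNA was sequenced from A375, an established human melanoma cell line that carries the genotype BRAFV600E in every group. The 9 libraries form 3 groups of 3. Vemurafenib cells received 10 µM of this inhibitor of mutant BRAF for 3 days, cisplatin cells received 2 µM of this DNA-crosslinking platinum compound for 1 day, and both were collected on day 7 after a return to drug-free culture. Control cells were kept in normal culture. The series title concerns an atypical senescence-associated secretory phenotype induced in melanoma by vemurafenib. The drugs differed in dose, exposure and time without drug, so a difference between them cannot be told apart from these. A375 is a single line, and nothing in the labels says that the replicates came from separate cultures. The p-values therefore rest on a spread that could be technical.

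Interleukin-1 alpha and beta are proinflammatory cytokines that bind the same receptor. The receptor subunit IL1R1 binds the ligand and recruits the accessory protein IL1RAP, and the complex signals through the adaptor MYD88 and IRAK kinases to NF-kB. IL1RN occupies IL1R1 without recruiting IL1RAP and so blocks the signal. In senescent cells, cell-surface IL1A is known as an upstream trigger of the secretion of IL6 and CXCL8. IL18 and IL33 are relatives with receptors of their own, and IL33 shares IL1RAP as its accessory chain.

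Library totals were 14481020 to 16038475 estimated counts, and 13989 genes passed the filter on low counts and were tested. Vemurafenib replicate 1 stood apart. Its counts differed from those of the other vemurafenib libraries by a chi-square of 56.6 per gene against each, where the other pairs within a group gave 4.63 to 14.5. Melanoma markers summed to 2061.6 to 2223.1 TPM in vemurafenib, 3628.9 to 4010.8 in cisplatin and 1392.9 to 1587.3 in control libraries. The lineage factor SOX10 was at 804.4 TPM in vemurafenib, 610.1 in cisplatin and 730.4 in control cells, while the pigment gene MLANA averaged at most 0.453 TPM in any group. Other melanoma markers moved: DCT, MITF and S100B rose after vemurafenib, and DCT, S100B, S100A1 and PMEL rose and SOX10 fell after cisplatin. S100B was at 583.9 TPM in vemurafenib, 300.0 in cisplatin and 30.6 in control cells, and DCT at 125.1 TPM in vemurafenib, 0.32 in cisplatin and 0.0433 in control cells. Immune markers, 8 of 10 in the table, summed to 108.0 to 156.1 TPM in vemurafenib, 277.8 to 358.8 in cisplatin and 101.4 to 137.4 in control libraries. Most of that was CD68, a lysosomal protein, and CD68 and LYZ rose after cisplatin (LYZ 58.8 against 10.7 TPM in control cells). ITGAM fell after vemurafenib, on 1 count against 49 in control libraries, and PTPRC, which defines blood cells, had 12 counts over the vemurafenib, 14 over the cisplatin and none over the control libraries. Keratinocyte markers, 6 of 7 in the table, summed to 17.4 to 22 TPM in vemurafenib, 19.5 to 22.4 in cisplatin and 18.2 to 21.6 in control libraries, most of it KRT10. KRT14 fell after both drugs and was at 0.603 TPM in vemurafenib, 0.633 in cisplatin and 5.53 in control cells. It passed the filter only through the control libraries (22, 21 and 203 counts in the same order). KRT10 was not called, with log2 changes of 0.29 after vemurafenib and 0.35 after cisplatin. The other keratinocyte markers were below the filter. KRT5 had 2, 5 and 1 counts in that order, TP63 13, 18 and 31, DSG3 7, 5 and 7, and IVL 0, 26 and 1. All 6 fibroblast markers were in the table and summed to 17 to 27.9 TPM in vemurafenib, 12 to 26.1 in cisplatin and 8.75 to 10.4 in control libraries. LUM and DCN rose after both drugs, COL1A1 fell after vemurafenib, PDGFRB fell after cisplatin, and THY1 was at 0 in vemurafenib and control libraries. All 5 endothelial markers were in the table and summed to 2.79 to 10.8 TPM in vemurafenib, 19.4 to 21.8 in cisplatin and 6.26 to 8.25 in control libraries. PECAM1 and VWF fell after vemurafenib, KDR rose after cisplatin, and CDH5 was at 0 in vemurafenib and control libraries. The part of any of these in the results below was not tested. In bulk RNA, fewer cells with a transcript and less of it per cell cannot be told apart.

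Levels per transcript length (TPM) put IL1A first among the members in every group. In vemurafenib cells IL1A averaged 13.6 ± 4.97 TPM, IL1RAP 12.5 ± 6.74 TPM and IL1B 7.20 ± 2.23 TPM (SD, n = 3), and the libraries of these neighbours overlapped. IL18 followed at 1.49 ± 0.865 TPM and IL1R1 at 0.463 ± 0.122 TPM. In cisplatin cells the order was IL1A at 85.6 ± 9.86 TPM, IL1B at 19.4 ± 1.65, IL1RAP at 16 ± 0.402 and IL1R1 at 0.877 ± 0.142, with no overlap between these neighbours. In control cells IL1A stood at 150.3 ± 39.5 TPM, above 94.6% of the genes in the table, and IL1B at 40.2 ± 12.7 TPM, above 78.4%. IL1RAP was at 7.43 ± 1.44 TPM there, and IL18 (0.977 ± 0.807) and IL1R1 (0.783 ± 0.168) overlapped. The A375 cells thus held far more transcript of the agonists than of the ligand-binding receptor subunit in each group, and next to none of the antagonist.

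**Figure D1:**
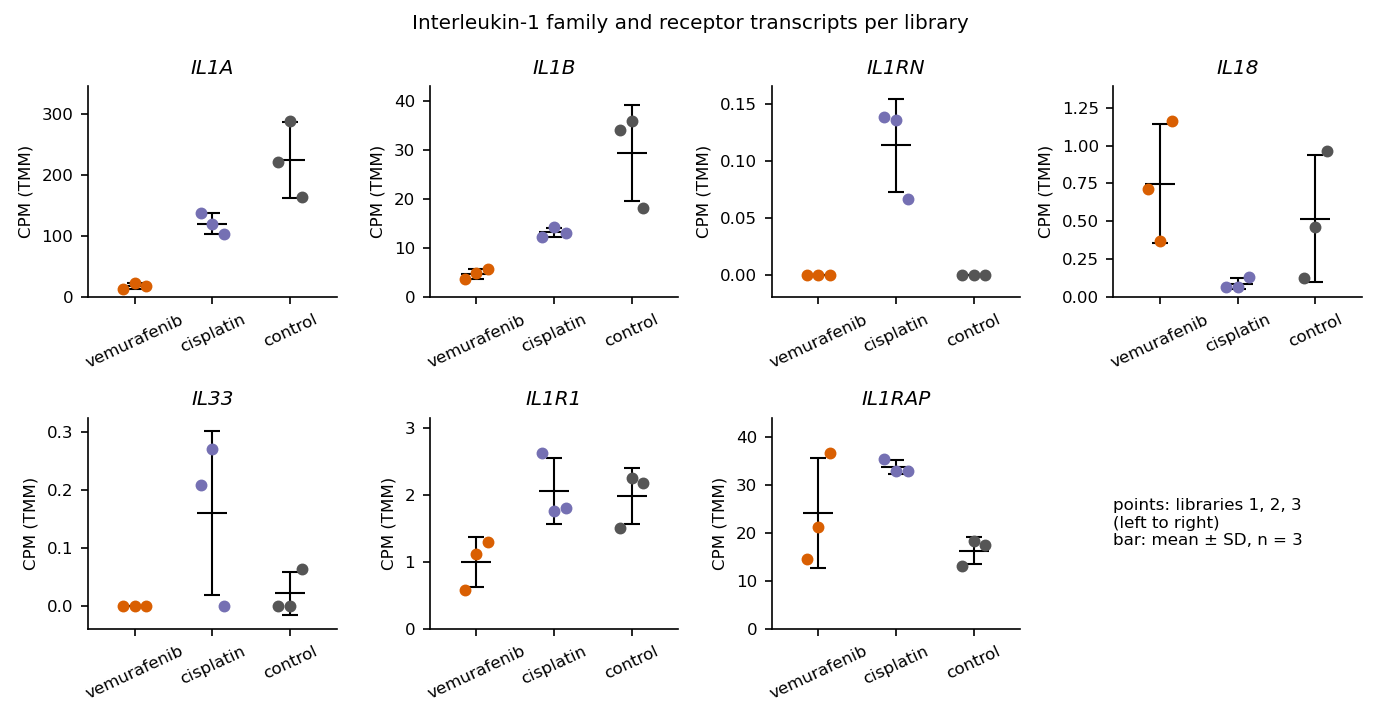
Expression of each member per library, as TMM-normalised CPM (counts scaled to library size, linear axes that differ between panels), with vemurafenib, cisplatin and control from left to right, points for replicates 1 to 3 and bars for the mean ± SD. IL1A and IL1B are lowest in the vemurafenib libraries (13.1 to 22.8 and 3.71 to 5.69 CPM), IL1RAP has its highest mean and smallest spread in cisplatin libraries, and IL1RN and IL33 stay under 0.3 CPM.

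Vemurafenib against control asked what remained different on day 7 after transient BRAF inhibition. Of the 5 members that passed the filter, IL1A, IL1B and IL1R1 fell and none rose. The background was 44.9% of all tested genes called, 22.9% lower and 22% higher, at an adjusted p under 0.05 (edgeR's quasi-likelihood test, Benjamini-Hochberg adjustment). The median log2 change was -0.98 over the 5 tested members and 0.01 over all tested genes. The same 3 members had vemurafenib libraries wholly below the control libraries, which held for 27% of tested genes, and no member lay wholly above, as 25.8% of tested genes did.

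IL1A (gene identifier 3552, chr2:112773925-112784493 of GRCh38) was at 13.1, 22.8 and 19.3 CPM in vemurafenib libraries, at 138.0, 120.6 and 103.3 CPM in cisplatin libraries and at 221.0, 287.6 and 164.1 CPM in control libraries. The 3 groups did not overlap. Vemurafenib cells had 12.2-fold less IL1A than controls, a log2 change of -3.60 (SE 0.24, adjusted p = 6.03e-07), and only 101 of the tested genes had a lower change. IL1B (identifier 3553, chr2:112829751-112836779) was at 3.71, 4.99 and 5.69 CPM in vemurafenib libraries, 12.4, 14.3 and 13.1 CPM in cisplatin libraries and 34.1, 35.9 and 18.2 CPM in control libraries. Its groups did not overlap either, with control replicate 3 the lowest control for both cytokines. IL1B fell by 2.61 on the log2 scale after vemurafenib (SE 0.25, adjusted p = 9.02e-06). Without vemurafenib replicate 1, the lowest library for both genes, the log2 changes were -3.41 for IL1A and -2.46 for IL1B.

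IL1A and IL1B lie next to each other on chromosome 2 on the same strand, with 45 kb between them. Because they fell together, the 250 bases before each start are shown (RefSeq, GRCh38.p14), beside those of IL1RAP, the member that moved the other way after cisplatin. Capitals mark matches to the letters TGANTCA (AP-1), GGGA and CC around 4 bases of any kind (NF-kB) or TATAAA, read on both strands.
IL1A, chr2:112784494-112784743, minus strand: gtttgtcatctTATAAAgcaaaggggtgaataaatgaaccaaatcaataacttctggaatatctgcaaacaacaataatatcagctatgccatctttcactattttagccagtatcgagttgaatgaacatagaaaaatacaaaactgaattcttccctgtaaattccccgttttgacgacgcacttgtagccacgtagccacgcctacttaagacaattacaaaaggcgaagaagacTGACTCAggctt
IL1B, chr2:112836780-112837029, minus strand: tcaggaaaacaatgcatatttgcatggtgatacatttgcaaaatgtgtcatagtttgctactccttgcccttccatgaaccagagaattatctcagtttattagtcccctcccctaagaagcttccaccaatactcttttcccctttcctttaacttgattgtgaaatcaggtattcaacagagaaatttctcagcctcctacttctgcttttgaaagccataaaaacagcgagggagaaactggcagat
IL1RAP, chr3:190513835-190514084, plus strand: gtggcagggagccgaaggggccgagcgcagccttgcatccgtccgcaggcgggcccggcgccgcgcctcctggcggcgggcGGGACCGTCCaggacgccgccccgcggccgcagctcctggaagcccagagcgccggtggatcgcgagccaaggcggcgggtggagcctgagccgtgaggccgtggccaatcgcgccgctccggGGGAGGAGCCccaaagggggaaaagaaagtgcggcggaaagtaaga
The IL1A stretch held 1 AP-1 match, 12 bases before the start, and the window searched, which ran on 50 bases past the start, held another at position 39. Its TATAAA match lay 239 bases before the start. The IL1B window held no match to any of the motifs searched, which also included TGACGTCA (CRE) and TTGCGNAA (C/EBP). Only these letters were searched, so variants of a motif, including those of a TATA box, were not counted. The IL1RAP window held 2 NF-kB matches and no AP-1 match. Of the other members searched, the IL1RN window held an AP-1 match 223 bases before the start, and the IL33 and IL1R1 windows held no match. The starts used for IL1RN and IL1R1 lie inside the span of the gene. Whether a match goes with a direction of change was not tested. Windows of the same 300 bases held an AP-1 match in 7.71%, an NF-kB match in 25.6%, a TATA match in 11.5%, a CRE match in 1.85% and a C/EBP match in 0.891% of 35116 RefSeq genes. The AP-1 and NF-kB letters do not overlap in these windows. The IL1RAP stretch was 74.8% G or C, against 37.6% for IL1A and 40% for IL1B.

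The balance between the agonists was compared as a ratio. The log2 ratio of IL1A to IL1B in TPM was 0.79, 1.16 and 0.73 in vemurafenib libraries, 2.44, 2.05 and 1.94 in cisplatin libraries and 1.66, 1.97 and 2.14 in control libraries. All vemurafenib libraries lay below all others, while cisplatin and control libraries overlapped. The difference in mean log2 ratio was -1.03 for vemurafenib minus control cells and -1.25 for vemurafenib minus cisplatin cells (two-sided exact permutation test, p = 0.1 each, the smallest that 3 against 3 libraries allow, and 0.15 after Benjamini-Hochberg adjustment over 3 comparisons). Cisplatin minus control cells gave 0.22 (exact permutation p = 0.5, adjusted 0.5).

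**Figure D2:**
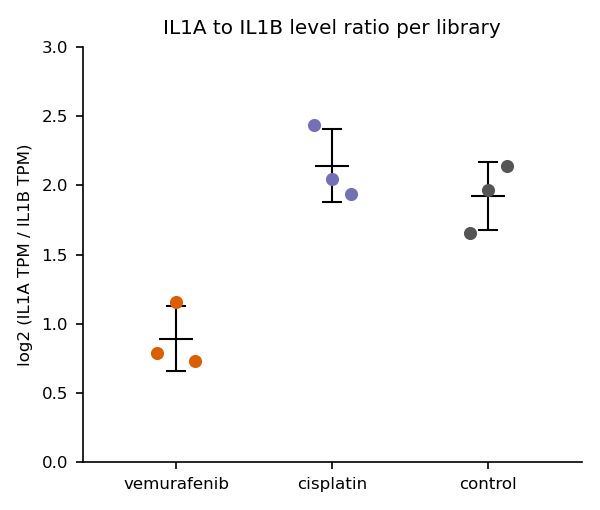
The log2 ratio of IL1A to IL1B levels in TPM for each library, with vemurafenib, cisplatin and control from left to right, points for libraries and bars for the mean ± SD (n = 3). The vemurafenib libraries lie between 0.73 and 1.16, below the cisplatin (1.94 to 2.44) and control libraries (1.66 to 2.14).

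Changes of the receptor subunits were smaller. IL1R1 (identifier 3554, chr2:102070390-102179874) had 9, 18 and 21 counts in vemurafenib libraries and 23, 34 and 34 in control libraries, which is 0.998 ± 0.366 against 1.98 ± 0.417 CPM (n = 3). It fell by 0.98 on the log2 scale (SE 0.33, adjusted p = 0.0316), with no overlap between the groups. This call was lost without vemurafenib replicate 1 (adjusted p = 0.0773) or 2 (0.05), without control replicate 2 (0.102) or 3 (0.0874), with total counts as the only scaling (0.0524) and on TPM with limma (0.0584 at a pseudocount of 1 TPM, 0.105 at 0.1). IL1R1 overlaps the annotated antisense gene IL1R1-AS1 in GENCODE v29, and without strand information reads of the pair cannot be told apart. IL1RAP (identifier 3556, chr3:190514085-190659750) was at 14.5, 21.3 and 36.8 CPM in vemurafenib libraries against 13.1, 18.4 and 17.6 CPM in control libraries. These groups overlapped, and the log2 change of 0.57 (95% interval -0.02 to 1.15, adjusted p = 0.109) did not pass. Without vemurafenib replicate 1 it was 0.83 and passed (adjusted p = 0.00425), and without vemurafenib replicate 3 it was 0.11 (adjusted p = 0.657).

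Of the other cytokines, IL18 (identifier 3606, chr11:112143260-112164094), which needs cleavage by caspase-1 to act, was close to the detection limit. It had 11, 6 and 19 counts in vemurafenib, 1, 1 and 2 in cisplatin and 2, 7 and 15 in control libraries. Vemurafenib and control libraries overlapped, and the log2 change of 0.52 between them had a 95% interval of -0.73 to 1.78 (adjusted p = 0.488). IL33 (identifier 90865, chr9:6215149-6257983), a nuclear alarmin released by damaged cells, had no count in the vemurafenib libraries, 3, 4 and 0 in the cisplatin libraries and 0, 0 and 1 in the control libraries. The antagonist IL1RN (identifier 3557, chr2:113099360-113134014) had no count in vemurafenib or control libraries and 2, 2 and 1 counts in cisplatin libraries. A summed count of 0 has an exact Poisson upper limit of 3.69, and the 5 IL1RN counts after cisplatin an interval of 1.62 to 11.7, which cover counting error only. IL1RN and IL33 stayed below the filter and were not tested.

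**Figure D3:**
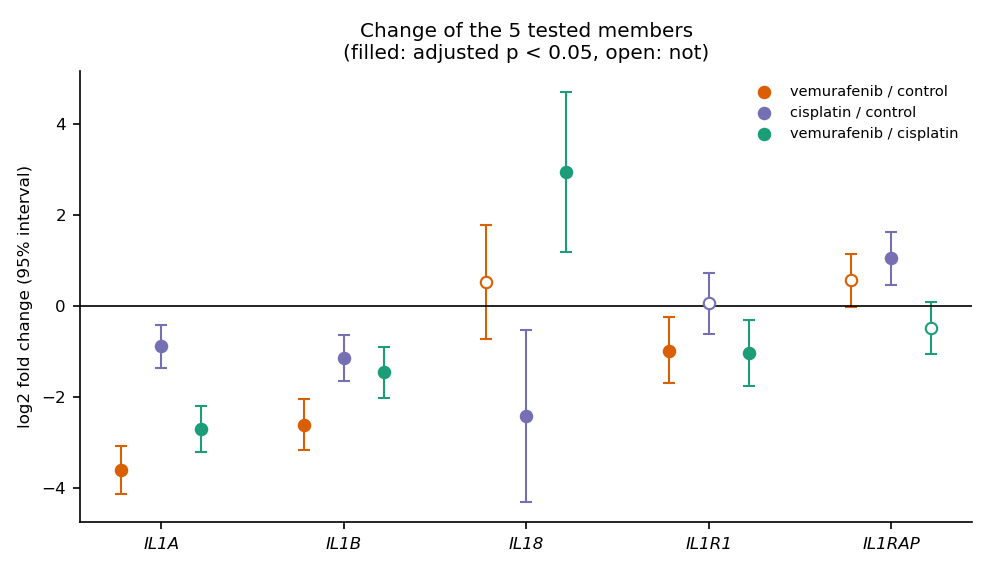
Log2 fold changes of the 5 tested members with 95% intervals in each comparison, filled where the adjusted p was under 0.05 and open where it was not. IL1A and IL1B lie below 0 in all comparisons, IL1RAP is filled for cisplatin against control, and the intervals of IL18 span several log2 units (1.18 to 4.71 for vemurafenib against cisplatin).

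Cisplatin against control gave the same readout after transient DNA crosslinking. IL1A, IL1B and IL18 fell and IL1RAP rose, 4 of the 5 tested members, where 46.3% of all tested genes were called, 23.5% lower and 22.7% higher. Cisplatin libraries lay wholly below controls for IL1A and IL1B, as for 33.8% of tested genes, and wholly above for IL1RAP, as for 33.1%. The median log2 change was -0.89 over the 5 and 0.00 over all tested genes. IL1A fell by 0.89 on the log2 scale (SE 0.22, adjusted p = 0.00543) and IL1B by 1.15 (SE 0.23, adjusted p = 0.00186). The IL1A call was lost on TPM with limma (adjusted p = 0.0531 at a pseudocount of 1 TPM and 0.0537 at 0.1). IL1RAP was at 35.4, 32.9 and 33.0 CPM in cisplatin libraries against 13.1, 18.4 and 17.6 CPM in control libraries. The groups did not overlap, and the gene rose by 1.05 on the log2 scale (SE 0.27, adjusted p = 0.00756), 2.06-fold. Its separate transcripts for the membrane-bound and soluble forms were not resolved by counts per gene. IL1RAP also overlaps 3 loci annotated on the same strand in GENCODE v29 (GCNT1P3, RN7SKP296 and AC108747.1), and their part in its counts was not tested. IL1R1 was at 2.63, 1.76 and 1.8 CPM against 1.5, 2.26 and 2.18 CPM in controls, with a log2 change of 0.06 (95% interval -0.61 to 0.73, adjusted p = 0.891). IL18 fell by 2.42 (SE 0.86, adjusted p = 0.0377) on a summed count of 4 against 24 in controls, and the groups touched at 2 counts for a library of each.

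The IL18 call after cisplatin rested on few reads. It was lost without control replicate 2 or 3 (adjusted p = 0.0667 and 0.192), without any cisplatin library (0.1, 0.103 and 0.0689 for replicates 1 to 3) and on TPM with limma (0.126 at a pseudocount of 1 TPM and 0.0598 at 0.1). IL18 overlaps a locus annotated on the opposite strand in GENCODE v29, and it passed the filter through its vemurafenib and control libraries. For IL1RN the cisplatin libraries lay above those of both other groups, and limma on TPM called it higher than in controls (adjusted p = 0.00406 at a pseudocount of 1 TPM and 0.0014 at 0.1), while edgeR without a filter did not (0.0763).

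Vemurafenib against cisplatin compared the drug groups directly. IL1A, IL1B and IL1R1 were lower and IL18 was higher in vemurafenib cells, 4 of the 5 tested members, where 43.7% of all tested genes were called, 20.8% lower and 23% higher. Vemurafenib libraries lay wholly below cisplatin libraries for IL1A, IL1B and IL1R1, as for 26.1% of tested genes, and wholly above for IL18, as for 27.9%. The median log2 change was -1.04 over the 5 members and 0.03 over all tested genes. IL1A was 6.54-fold lower in vemurafenib cells, a log2 change of -2.71 (SE 0.24, adjusted p = 3.23e-06), and IL1B 2.76-fold lower, a log2 change of -1.46 (SE 0.26, adjusted p = 0.000719). IL18 was higher by 2.95 (SE 0.81, adjusted p = 0.0114), from summed counts of 36 in vemurafenib and 4 in cisplatin libraries, with no overlap. It passed the filter only through vemurafenib and control libraries, and on log2(TPM + 1) the change was 1.03 (limma, adjusted p = 0.0289). IL1R1 was at 0.998 ± 0.366 CPM in vemurafenib and 2.06 ± 0.491 CPM in cisplatin cells (log2 change -1.04, adjusted p = 0.0248). That call was lost without vemurafenib replicate 1 (adjusted p = 0.0616), without cisplatin replicate 1 (0.105) and on TPM with limma at a pseudocount of 0.1 (0.0525). IL1RAP did not pass (log2 change -0.48, 95% interval -1.05 to 0.09, adjusted p = 0.161), except without vemurafenib replicate 3, its highest vemurafenib library (-0.94, adjusted p = 0.00206).

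The wider family was described from a list of 15 other ligands, receptors and binding proteins, of which 13 were in the table and 6 passed the filter. Of these 6, 5 fell after vemurafenib (median log2 change -1.98), where 22.9% of all tested genes fell, and 4 after cisplatin (median -1.40), where 23.5% fell. None rose against controls. Some passed the filter only through the group in which they were high, so these counts are a description of the 6. IL37, a family cytokine known to restrain inflammation, lies beyond IL1B on chromosome 2. It had 22, 8 and 9 counts in vemurafenib libraries, 78, 62 and 54 in cisplatin libraries and 348, 325 and 270 in control libraries. The 3 groups did not overlap, and IL37 fell by 4.63 on the log2 scale after vemurafenib (SE 0.31, adjusted p = 5.82e-07) and by 2.22 after cisplatin (SE 0.25, adjusted p = 2.94e-05). The drug groups differed by -2.41 (vemurafenib over cisplatin, adjusted p = 0.00013).

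The receptors among the relatives that could be tested were IL1RL1, IL18R1, SIGIRR and IL1RAPL1. IL1RL1, the ligand-binding receptor for IL33, had 1, 4 and 8 counts in vemurafenib libraries, 0, 1 and 3 in cisplatin libraries and 109, 188 and 263 in control libraries. Every treated library lay far below every control library, and the log2 changes were -5.44 (SE 0.50, adjusted p = 6.03e-06) after vemurafenib and -6.95 (SE 0.61, adjusted p = 3.68e-06) after cisplatin. With these low treated counts IL1RL1 passed the filter only through the control libraries, and on log2(TPM + 1) the changes were -2.57 after vemurafenib (limma, adjusted p = 6.4e-05) and -2.70 after cisplatin (4.1e-05). IL18R1, the ligand-binding chain for IL18, was at 0.518 ± 0.306 CPM in vemurafenib cells and 0.746 ± 0.474 CPM in cisplatin cells, against 4.83 ± 0.383 CPM in control cells (n = 3 each). It fell by 3.19 after vemurafenib (adjusted p = 7.21e-05) and by 2.68 after cisplatin (adjusted p = 0.000193). IL18R1 also passed the filter only through the control libraries, and on log2(TPM + 1) the changes were -1.50 after vemurafenib (limma, adjusted p = 0.000289) and -1.39 after cisplatin (0.000434). Its partner IL18RAP had 0, 1 and 1 counts summed over vemurafenib, cisplatin and control libraries. SIGIRR, an inhibitory receptor of the family, fell by 0.77 after vemurafenib (adjusted p = 0.00654) and by 0.58 after cisplatin (adjusted p = 0.0266). The cisplatin call of SIGIRR was lost without control replicate 1 or 2 (0.0854 and 0.0867) or cisplatin replicate 1 or 3 (0.0905 and 0.074). IL1RAPL1, an accessory-protein homologue of neurons, fell by 0.78 after vemurafenib (adjusted p = 0.013), a call lost without control replicate 2 (0.0634) and on TPM with limma (0.131 at a pseudocount of 1 TPM and 0.117 at 0.1). After cisplatin IL1RAPL1 had a log2 change of -0.37 (adjusted p = 0.182), which passed without vemurafenib replicate 1 (0.0391) and with only the groups compared (0.0412).

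IL18BP, the soluble inhibitor of IL18, did not pass in any comparison. It was at 8.32 ± 0.584 CPM in vemurafenib, 8.65 ± 0.292 CPM in cisplatin and 7.03 ± 1.30 CPM in control cells. The remaining relatives had too few counts to test. IL36G had 1 count in each vemurafenib library, 8, 5 and 4 in cisplatin and 13, 10 and 13 in control libraries, so that the groups did not overlap. IL36RN, the antagonist of the IL-36 cytokines, summed to 2, 3 and 21 counts over vemurafenib, cisplatin and control libraries, the decoy receptor IL1R2 to 1, 2 and 11, and IL36B to 0, 9 and 9. IL1F10 and IL1RAPL2 had at most 5 counts in any group.

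**Figure D4:**
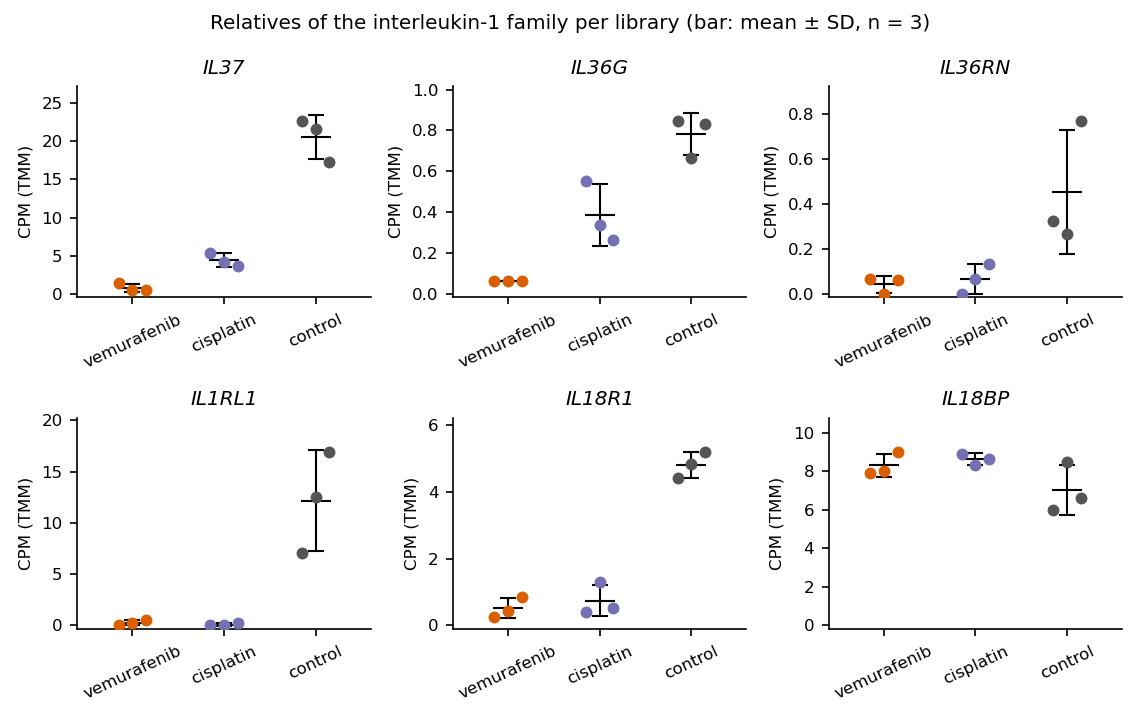
Expression of 6 relatives of the interleukin-1 cytokines and receptors per library in TMM-normalised CPM (linear axes that differ between panels), with vemurafenib, cisplatin and control from left to right and bars for the mean ± SD (n = 3). IL37, IL1RL1 and IL18R1 lie lower in every treated library than in every control library, whereas the IL18BP libraries of all groups lie between 6.0 and 9.0 CPM.

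IL1A, IL1B and IL1RN sit in 1 cluster of 9 protein-coding family genes on chromosome 2 (chr2:112773925-113134014, 360 kb, GRCh38), from IL1A through IL37 and the IL-36 genes to IL1RN, whereas IL18 lies on chromosome 11 and IL33 on chromosome 9. The flanking genes are not of the family. CKAP2L, a mitotic spindle protein gene beside IL1A, was at 37.0 ± 5.41 CPM in vemurafenib, 4.97 ± 1.02 CPM in cisplatin and 136.4 ± 6.63 CPM in control cells. Its log2 changes of -1.88 after vemurafenib and -4.78 after cisplatin thus ran in the opposite order to those of IL1A, -3.60 and -0.89. PSD4, beyond IL1RN, fell by 1.15 after vemurafenib (adjusted p = 0.000277) and had a log2 change of -0.25 after cisplatin (adjusted p = 0.25). IL1R1 lies in another cluster of the chromosome with IL1R2, IL1RL2, IL1RL1, IL18R1 and IL18RAP (chr2:101991960-102452565). Within it IL1RL1 and IL18R1, which passed the filter only through the control libraries, fell after both drugs. IL1R1 had log2 changes of -0.98 after vemurafenib (adjusted p = 0.0316, a call lost in the alternatives named above) and 0.06 after cisplatin (adjusted p = 0.891).

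Genes for signalling below the receptor were called no more often than all tested genes against controls. Of 19 listed adaptors, kinases and ubiquitin ligases 18 were tested, and 5 rose and 3 fell after vemurafenib (44.4% called, against 44.9% of all tested genes, median log2 change 0.04). IRAK2, a kinase of the receptor complex, was at 7.99 ± 0.946 CPM in vemurafenib, 13.5 ± 2.45 CPM in cisplatin and 37.3 ± 5.92 CPM in control cells. It fell by 2.22 after vemurafenib (SE 0.17, adjusted p = 1.91e-06) and by 1.47 after cisplatin (SE 0.17, adjusted p = 3.2e-05). PELI2, a ubiquitin ligase of the pathway, fell by 1.56 after vemurafenib, and IRAK1, the kinase upstream of TRAF6, rose by 0.71 (384.2 ± 48.2 against 235.6 ± 21.3 CPM). After cisplatin 3 rose and 2 fell (27.8% called, against 46.3%, median -0.11), among them MYD88, the shared adaptor, up by 0.88 (86.2 ± 5.46 against 47.0 ± 2.02 CPM), and TOLLIP, an inhibitor of IRAK1, up by 0.73. MYD88 also rose after vemurafenib, by 0.30 (adjusted p = 0.0309). Without vemurafenib replicate 1, and with only the groups compared, 10 passed after cisplatin, 5 in each direction. Calls over all genes also rose in these settings, from 6471 to 8555 and 8489. Between the drugs 6 were higher and 6 lower in vemurafenib cells (66.7% called, against 43.7%), with log2 changes of 0.89 for IRAK1, -1.97 for PELI2 and -0.75 for IRAK2. The inhibitory kinase IRAK3 had at most 2 counts in any group.

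Processing and release factors were also split. Of 23 listed, 19 were tested, and 5 rose and 7 fell after vemurafenib (63.2% called, against 44.9% of all tested genes, median log2 change 0.00). After cisplatin 5 rose and 3 fell, near the share of all genes (42.1% called, against 46.3%, median -0.04). CASP1, which rose after vemurafenib, passed the filter only through vemurafenib (70, 22 and 15 counts over vemurafenib, cisplatin and control libraries). NLRP3, which fell after both drugs, passed it only through the control libraries (19, 8 and 67 counts in the same order). The counts of factors called are thus a description of the 19. S100A13, which takes part in the unconventional release of IL1A, was at 41.6 ± 8.75 CPM in vemurafenib, 285.6 ± 57.7 CPM in cisplatin and 153.5 ± 24.8 CPM in control cells. It fell by 1.88 after vemurafenib (SE 0.19, adjusted p = 1.25e-05), rose by 0.90 after cisplatin (SE 0.18, adjusted p = 0.00198) and differed by a log2 change of -2.78 between vemurafenib and cisplatin cells (SE 0.20, adjusted p = 6.25e-07). The gene S100A1 lies within the span of S100A13, and without strand information reads of the pair cannot be told apart. S100A1 had log2 changes of -0.30 after vemurafenib (adjusted p = 0.181), 1.92 after cisplatin and -2.22 for vemurafenib over cisplatin. Its part in the S100A13 values was not tested. CAPN2, the large subunit of a calpain that cleaves the IL1A precursor, fell by 1.14 after vemurafenib (215.7 ± 18.1 against 476.2 ± 25.3 CPM), and GSDME, a pore-forming gasdermin, by 0.97. After cisplatin CAPN2 fell by 0.35 (adjusted p = 0.0197) and GSDME by 0.53 (adjusted p = 0.00495). AIM2, a sensor of cytosolic DNA, rose by 1.29 after cisplatin (34.9 ± 2.45 against 14.2 ± 1.76 CPM), as did the inflammatory caspase CASP4, by 0.72. Both rose after vemurafenib too, AIM2 by 0.67 (adjusted p = 0.00102) and CASP4 by 0.85 (adjusted p = 0.000132). CASP1, which cleaves the IL1B and IL18 precursors, was at 1.47 ± 0.50 CPM in vemurafenib, 0.497 ± 0.0967 CPM in cisplatin and 0.326 ± 0.0631 CPM in control cells. Its adaptor PYCARD had no count over the vemurafenib libraries and 1 over the cisplatin and control libraries each. Between the drugs 2 factors were higher and 7 lower in vemurafenib cells, also near that share (47.4% called, against 43.7%). CAST, the calpain inhibitor calpastatin, was among the lower ones with a log2 change of -0.77. Without vemurafenib replicate 1 the counts of higher and lower factors were 5 and 9, while calls over all genes also rose, from 6119 to 7101.

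**Figure D5:**
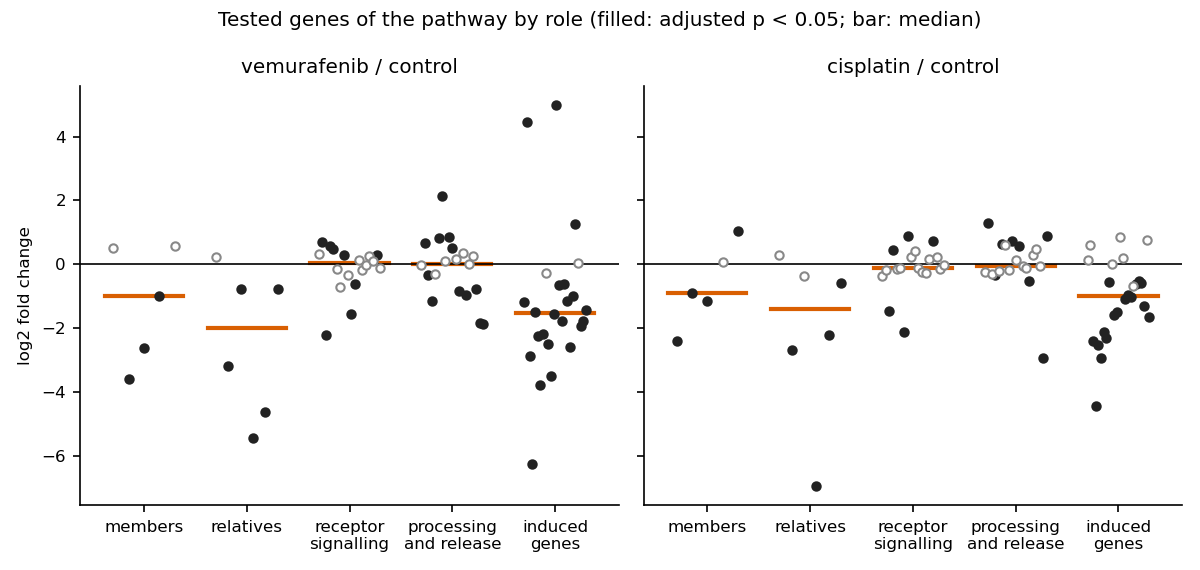
Log2 fold changes of the tested genes of each list, members, relatives, receptor signalling, processing and release, and interleukin-1-induced genes, after vemurafenib (left) and cisplatin (right) against control, filled where the adjusted p was under 0.05, with a bar at the median. Signalling and processing medians lie near 0, while the induced genes have medians of -1.53 and -1.01.

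Of 28 listed genes that interleukin-1 is known to induce through NF-kB, 24 were tested. After vemurafenib 19 fell and 3 rose (91.7% called, against 44.9% of all tested genes, median log2 change -1.53), and after cisplatin 17 fell and none rose (70.8% called, against 46.3%, median -1.01). The genes that rose after vemurafenib were the chemokine CCL2, the matrix protease MMP3 and the mitochondrial enzyme SOD2. MMP3 had 177 counts over the vemurafenib, 9 over the cisplatin and 5 over the control libraries, so it passed the filter only through vemurafenib. CCL20, which fell after both drugs, passed it only through the control libraries (25, 32 and 179 counts in the same order). The counts of genes called are thus a description of the 24. CCL2 was at 218.4 ± 69.9 CPM in vemurafenib, 15 ± 2.51 CPM in cisplatin and 9.92 ± 2.83 CPM in control cells, a log2 change of 4.46 after vemurafenib (SE 0.28, adjusted p = 4.08e-07). CSF2, the granulocyte-macrophage colony-stimulating factor, was at 0.353 ± 0.227 CPM in vemurafenib, 1.27 ± 0.504 CPM in cisplatin and 27.9 ± 12.3 CPM in control cells. The chemokine CXCL1 was at 172.5 ± 16.5 CPM in vemurafenib, 85.6 ± 3.74 CPM in cisplatin and 490.9 ± 90.3 CPM in control cells. It was higher in vemurafenib than in cisplatin cells, by a log2 change of 1.01 (SE 0.14, adjusted p = 9.67e-05), where IL1A was lower. TRAF1, a signalling adaptor, had a log2 change of -2.52 for vemurafenib over cisplatin (SE 0.35, adjusted p = 0.000134). CXCL8 fell by 2.18 after vemurafenib (adjusted p = 4.99e-06) and by 2.31 after cisplatin (adjusted p = 3.33e-06). Between the drugs its log2 change was 0.13 (adjusted p = 0.61). IL6 summed to 9, 2 and 25 counts over vemurafenib, cisplatin and control libraries and was not tested. These lists were compiled with earlier results of these data known and support no direction on their own.

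Likeness to each member was measured as the root mean square difference in log2 CPM over the 9 libraries after centring each gene on its mean, among 11817 or 11818 other genes with at least 50 counts per library on average. These are descriptions, since all genes share the same libraries and their depth. The genes nearest to IL1A were the integrin subunits ITGB3 (0.25) and ITGA1 (0.27) and CHRDL1 (0.29), a secreted BMP antagonist. ITGB3 was at 59.8 ± 25 CPM in vemurafenib, 336.9 ± 61.3 CPM in cisplatin and 652.9 ± 36.2 CPM in control cells. IL1B stood at place 75 in that order (0.59). The genes nearest to IL1B were INHA (0.27), a subunit of inhibin, FHIP1A (0.27) and SFRP1 (0.28), a secreted Wnt antagonist. SFRP1 was at 157.1 ± 43.9 CPM in vemurafenib, 409.8 ± 33.5 CPM in cisplatin and 786.7 ± 38.3 CPM in control cells. IL1A stood at place 270 for IL1B. The nearest genes were BIRC3 (0.17), ACSL4 (0.18) and PDE10A (0.18) for IL1R1, and AP1S3 (0.18), ZNF28 (0.19) and PRRG1 (0.20) for IL1RAP. For IL18, with its few counts, they were CAV1 (0.48), OPN3 (0.49) and MYO10 (0.49).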

How the data were processed

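RNA-seq of 9 A375 libraries in 3 groups was used, grouped by the treatment label. Per the labels' protocols, random-primed cDNA was amplified by PCR and circularised. No label states that strand was kept. The submitters' processing notes name HISAT2 2.0.4 and the build hg38, while the counting tool is not given in the sources used here. Values deposited by the authors are estimated counts (13.6% to 14.1% of values not whole at a tolerance of 1e-06), which were rounded for the tests. TPM and FPKM values were deposited as well, named so per the file headers, and served for levels between genes and for alternatives.

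Genes were filtered with edgeR's filterByExpr (minimum count 10), scaled by TMM and fitted as 3 group means in edgeR 4.0.16 (R 4.3.3) with 6 residual degrees of freedom. Contrasts were tested two-sided by the quasi-likelihood F test over 13989 genes, adjusted by Benjamini-Hochberg (threshold 0.05). Levels are TMM-normalised CPM unless TPM is stated. The steps were tested on simulated counts. Alternatives used DESeq2 1.42.0, limma 3.58.1, other scalings and filters, a replicate block and each library left out. Totals of 14481020 to 16038475 counts set the precision, and intervals on counts cover counting error only, because amplified reads lack molecular identifiers.

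Of the gene identifiers 18153 matched RefSeq (GRCh38.p14), from which coordinates and 250-base upstream sequences were taken. Upstream sequences were found for 6 of the 7 members. Members and lists were chosen with earlier results of these data known. Named genes were the members and all relatives by counts. From each list of signalling, processing and induced genes, up to 3 called genes per comparison with the largest change were named, if their groups did not overlap and their mean reached 50 counts in the higher group. The 3 genes nearest each member that changed by a log2 of at least 1 were named too. Other named genes were chosen after their values were seen. Same-numbered libraries were checked for pairing by correlating deviations from group means across genes. Vemurafenib and control gave 0.18, 0.14 and 0.18 for replicates 1 to 3, so the numbers were taken as a possible pairing from the data, not from the labels. Unlike numbers gave -0.17 to -0.02 there. Cisplatin and control gave 0.21, 0.08 and 0.13, against -0.18 to 0.05 for unlike numbers, so a pairing is possible for them too. Vemurafenib and cisplatin gave 0.17, 0.01 and 0.1. These were not taken as pairs, since vemurafenib replicate 2 and cisplatin replicate 3 gave 0.14. The planned ratio of IL1RN to IL1A was not computed because IL1RN was at 0 in 6 libraries.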

Additional observations from a re-analysis of the deposited data

How the results depend on the processing

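Over 18 alternatives per comparison, 9 of which left out a library, the number of members called stayed at 2 to 3 for vemurafenib against control, 3 to 4 for cisplatin against control and 3 to 5 between the drugs. The members behind these numbers changed. On log2(TPM + 1) with limma, 2 rose and 1 fell after cisplatin, with IL1RN called on 5 counts and IL1A and IL18 not called. That fit called 5 members between the drugs, IL1RN among them. Without vemurafenib replicate 1, 1 member rose and 2 fell after vemurafenib, as IL1RAP passed and IL1R1 did not. IL1A and IL1B kept their direction in all alternatives and passed in all but the TPM fits named for IL1A after cisplatin. With the replicate block the counts of members called were 3, 4 and 4, as without it, and no count of a list moved by more than 1.5 times. The block changed no call of a member. The log2 change of IL1R1 after cisplatin, which did not pass, turned to -0.11 without control replicate 1 and -0.15 without cisplatin replicate 1, with a highest value of 0.16 over the left-out libraries. Between the drugs the change of IL18R1 (-0.51) turned to 0.13 without cisplatin replicate 2, and that of IL18BP (-0.05) to 0.06 on TPM with limma at either pseudocount. The cause of these turns was not tested. Of the relatives, 9 fell after vemurafenib without a filter on low counts and 8 on TPM at a pseudocount of 0.1, where 13 were tested, and 7 fell after cisplatin on TPM. Between the drugs 2 or 3 relatives passed in 11 alternatives, against 1. Total counts as the only scaling moved the median of all genes after vemurafenib to 0.11 and the share of higher calls to 60%, against 49.1%. The difference in the log2 ratio of IL1A to IL1B ranged over the left-out libraries from -1.16 to -0.92 for vemurafenib against control, 0.07 to 0.33 for cisplatin against control and -1.38 to -1.10 between the drugs. Depth limits IL18, IL1R1, IL1RN and IL33, each under 100 counts per group. IL18 gave no value under the filter of 1 CPM, and none in the fits of only the groups compared that held cisplatin.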
